A study of Xenopus laevis with 6 samples.

Results

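Oxidative phosphorylation was examined through 77 nuclear genes measured in the pancreas, the liver and the stomach of Xenopus laevis tadpoles. A gene was taken when its platform symbol, without the copy suffix, named a subunit or factor of the respiratory complexes (nduf, sdha to sdhd, uqcr, uqcc, cox followed by a digit, cyc1, cycs or atp5) and its probe set carried 1 symbol. The rule found 81 probe sets. For 4 genes with more than 1 probe set the brightest over all arrays was kept, which left 77 of 7531 named genes on the array. These symbols came from 62 gene names, since this allotetraploid frog carries a copy on a long chromosome (.L) and one on a short chromosome (.S) for many genes, and 15 names had both copies measured. By complex, 25 genes belonged to complex I, 4 to complex II, 10 to complex III, 1 to cytochrome c, 19 to complex IV and 18 to complex V. Of the 77, 65 encoded subunits and 10 assembly factors, beside cytochrome c and the ATP synthase inhibitor. The ndufa4 copies were counted in complex IV, where the mammalian protein is found in spite of its name. A further 5 probe sets were annotated to both copies of a gene and did not enter.

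The respiratory chain lies in the inner mitochondrial membrane. Complex I takes electrons from NADH and complex II from succinate, both pass them through ubiquinone to complex III, and cytochrome c carries them to complex IV, which reduces oxygen. Complexes I, III and IV pump protons, and complex V, the ATP synthase, makes ATP as the protons return. Most subunits are encoded in the nucleus, and assembly factors insert cofactors or join subunits without staying in the working enzyme. Tissues with a high energy demand, such as heart and kidney in mammals, carry more of these complexes.

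Total RNA was prepared from pancreas, liver and stomach buds of stage 42 embryos, swimming tadpoles in which the dorsal and ventral pancreatic buds have joined. The labels give no genotype, treatment or strain, the sexes were mixed in every group, and the groups differed by organ alone. Each bud was dissected whole, with mesoderm beside endoderm. Each organ had 2 Affymetrix arrays, from 2 separate isolations of tissue called replicates 1 and 2 here, so that p-values measure the spread between isolations. Its purpose was to find genes that mark the forming pancreas among these endodermal organs.

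The deposited values were linear intensities with a median of 100 on each of the 6 arrays. Tests were made with limma on log2 intensities, and "called" means an adjusted p under 0.05 over all 15491 gene probe sets. Defining markers mostly followed the labels. In pancreas 10 of 11 exocrine pancreas genes were called higher than in liver, and in liver 8 of 10 hepatocyte genes higher than in pancreas. All 4 stomach epithelium genes were called higher in stomach than in liver, and 3 of them higher in stomach than in pancreas. Endocrine pancreas genes were mixed: of 8, 4 were called higher in pancreas than in liver and 3 higher in pancreas than in stomach. The endocrine gene chga.L and the hepatocyte genes ambp.L and ttr.L were called higher in stomach than in pancreas. In addition, 5 exocrine genes were called higher in stomach than in liver. The 95th percentile of intensity was 1248 on stomach replicate 2 and 1431 to 1537 on the other 5 arrays. The precision of every value is limited by there being 2 arrays for an organ.

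Oxidative phosphorylation genes were bright, and on the deposited scale most differed little among the 3 organs. The geometric mean intensity of their probe sets had a median of 1512, from 66.0 to 9827, against a median of 100.5 over all gene probe sets, and 50 of the 77 were above 1000, as were 6.51% of all probe sets. A probe set's brightness depends on its probes as well as on its transcript, so levels were compared between organs and not between genes. The highest organ mean lay above the lowest by a median of 0.43 on the log2 scale, against 0.70 for all probe sets. Only 5 of the 77 genes (6.49%) differed by more than 1 on the log2 scale between any of the organs, against 34.1% of all probe sets. The residual SD within organs also had a lower median, 0.176 for the 77 genes and 0.287 for all probe sets. The ranges were not compared with those of equally bright probe sets. The limma F test among the organs called 1 of the 77 genes (1.30%), against 12.7% of all probe sets, and 15 (19.5%) had an unadjusted p under 0.05, against 31.3% of all. The count differed between settings: it was 14 of 77 (18.2%, against 21.9% of all) with an intensity trend and a robust variance prior together and 11 of 76 (14.5%, against 30.8%) when dim probe sets were left out, which also reduced the number tested to 9295. It was 7 (against 20.5%) after adding 16 to the intensity, 2 (against 13.2%) after quantile normalization and 1 (against 13.5%) with the replicate number as a block.

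The small differences ran mostly one way. Stomach had the highest organ mean for 59 of the 77 genes, pancreas for 13 and liver for 5, while liver had the lowest for 53, pancreas for 18 and stomach for 6. The median intensity of the 77 genes was 1629 and 1429 on pancreas replicates 1 and 2, 1354 and 1341 in liver, and 1856 and 1458 in stomach. The median stomach value was above the liver values on both arrays. Within each replicate number it was also above pancreas, narrowly in replicate 2, but stomach replicate 2 lay below pancreas replicate 1. Replicate 1 was above replicate 2 in every organ.

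**Figure D1:**
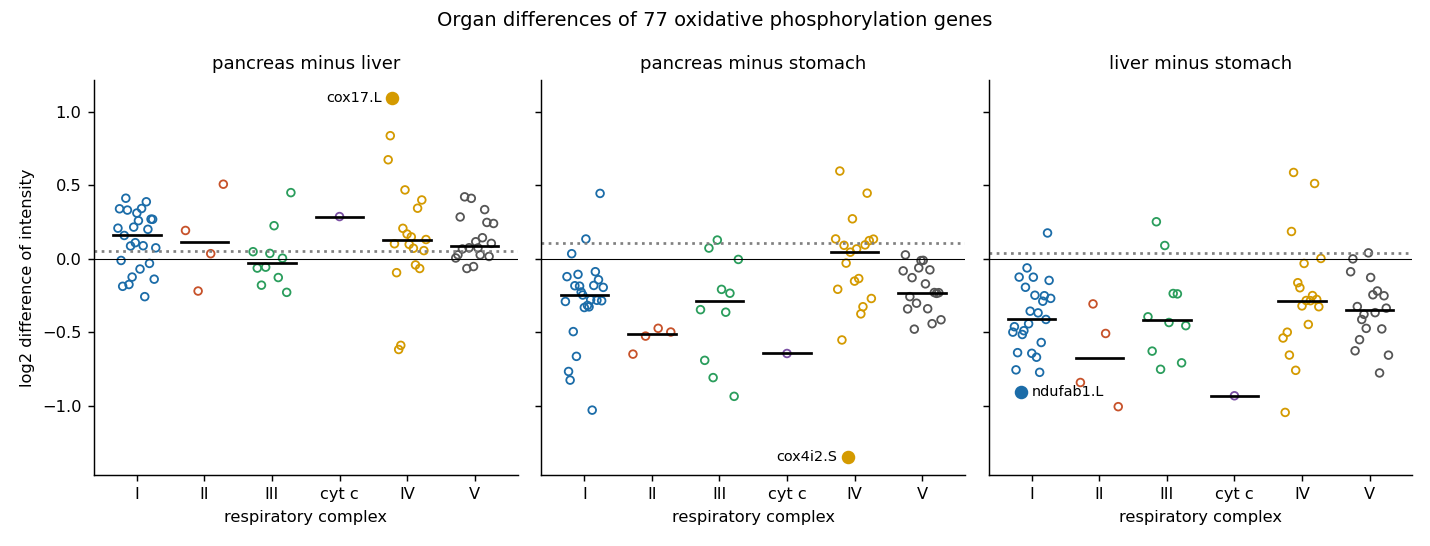
The log2 difference of intensity between organs is plotted for each of the 77 genes by respiratory complex, with a black bar at the median of each complex, filled points for genes called by limma and a dotted line at the median of all gene probe sets. Most genes lie below 0 in both panels that subtract stomach, and 1 gene is called in each panel.

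Against liver, pancreas was close to level. The log2 difference was positive for 56 of 77 genes (72.7%, against 53.7% of all probe sets), with a median of 0.10 beside 0.05 for all probe sets. The call was made for 1 gene higher in pancreas (1.30%, against 2.7% of all probe sets) and for none higher in liver (against 3.55%), while 3 and 2 had an unadjusted p under 0.05 by limma (6.49% in all, against 24.1% of all probe sets). Both pancreas arrays were above both liver arrays for 28 genes (36.4%, against 30.3% of all probe sets), and the reverse held for 8 (10.4%, against 24.6%). In either direction 6.26% of all probe sets were called, and the shares given next also count both directions. Shares by direction were not counted for those settings. With the replicate block 0 genes were called (against 6.81%), after quantile normalization 1 (against 6.05%), after adding 16 1 (against 11.1%), with dim probe sets left out 2 of 76 (against 19.4%) and with the intensity trend 2 (against 12.8%). For 63 of the 77 genes the 95% interval of the difference stayed inside a 2-fold change either way.

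Between pancreas and stomach the differences were mostly negative. The log2 difference was below 0 for 61 of 77 genes (79.2%, against 43.4% of all probe sets), with a median of -0.23 beside 0.11 for all probe sets. The call was made for 1 gene higher in stomach (1.30%, against 4.39% of all probe sets) and for none higher in pancreas (against 3.59%), while 9 and 1 had an unadjusted p under 0.05 by limma (13.0% in all, against 25.8% of all probe sets). Both stomach arrays were above both pancreas arrays for 35 genes (45.5%, against 24.2% of all probe sets), and the reverse held for 3 (3.90%, against 33.8%). In either direction 7.98% of all probe sets were called, and the shares given next also count both directions. Shares by direction were not counted for those settings. With the replicate block 1 gene was called (against 8.32%), after quantile normalization 4 (against 8.04%), after adding 16 4 (against 13.7%), with dim probe sets left out 5 of 76 (against 22.1%) and with the intensity trend 5 (against 14.6%), all higher in stomach. For 59 genes the 95% interval stayed inside a 2-fold change. The median rested in part on single arrays: it was -0.07 without stomach replicate 1 and -0.38 without stomach replicate 2, and -0.31 and -0.15 without pancreas replicate 1 or 2. After quantile normalization it was -0.46, with 69 of 77 genes below 0.

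Liver against stomach gave the most one-sided pattern. The log2 difference was below 0 for 69 of 77 genes (89.6%, against 47.0% of all probe sets), with a median of -0.37 beside 0.04 for all probe sets. Even so only 1 gene was called higher in stomach (1.30%, against 4.64% of all probe sets) and none higher in liver (against 4.94%), while 19 and 1 had an unadjusted p under 0.05 by limma (25.97% in all, against 24.1% of all probe sets). Both stomach arrays were above both liver arrays for 50 genes (64.9%, against 25.6% of all probe sets), and the reverse held for 2 (2.60%, against 28.8%). In either direction 9.59% of all probe sets were called, and the shares given next also count both directions. Shares by direction were not counted for those settings. With the replicate block 0 genes were called (against 10.1%), after quantile normalization 4 (against 10.3%), after adding 16 5 (against 13.5%), with dim probe sets left out 12 of 76 (against 18.5%) and with the intensity trend 11 (against 13.8%), all higher in stomach. The 95% interval stayed inside a 2-fold change for 41. The median was -0.22 without stomach replicate 1, -0.54 without stomach replicate 2 and -0.59 after quantile normalization. The 3 comparisons share arrays in pairs, so they are not separate evidence.

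Within each replicate number the direction was the same. Pancreas minus stomach had a median of -0.31 in replicate 1 and -0.17 in replicate 2, and 50 genes were below 0 in both. Liver minus stomach had medians of -0.53 and -0.23, with 59 genes below 0 in both. For pancreas minus liver the medians were 0.19 and 0.07, and 44 genes were above 0 in both. Across the 77 genes, the differences of replicate 1 and replicate 2 correlated at Pearson r of 0.66 for pancreas minus liver, 0.74 for pancreas minus stomach and 0.58 for liver minus stomach, as a description over genes that share arrays. Over all probe sets these values were 0.63, 0.67 and 0.69.

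**Figure D2:**
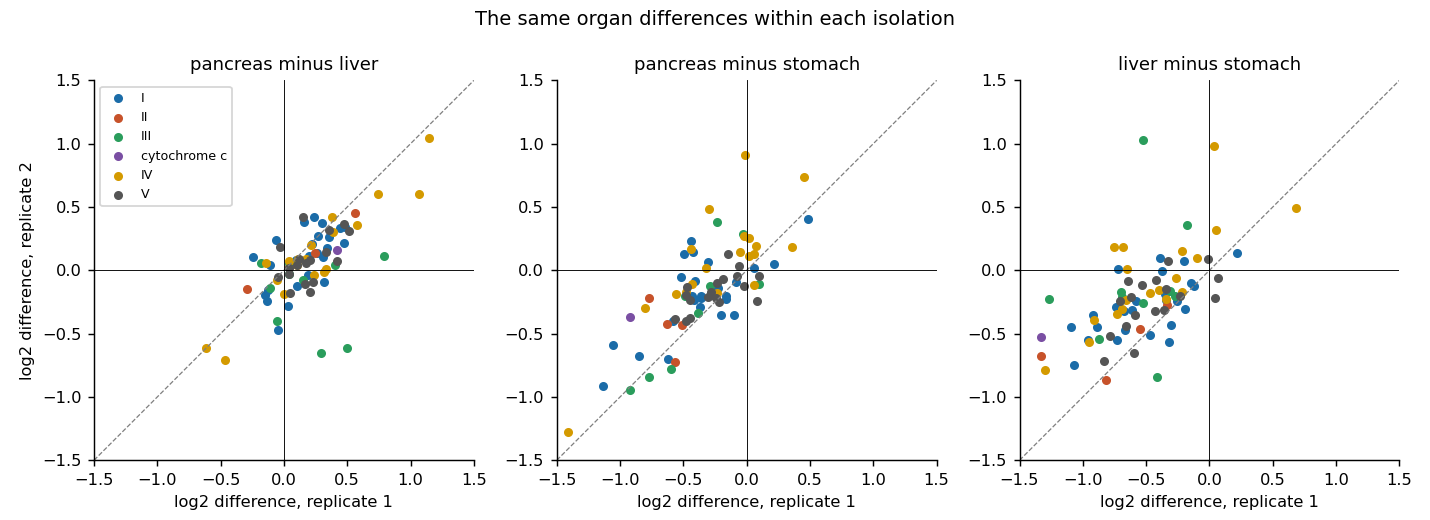
Each point is 1 of the 77 genes, with its log2 difference in replicate 1 on the horizontal axis and in replicate 2 on the vertical axis, coloured by complex; the dashed line marks equal values. In the liver minus stomach panel 59 points lie below 0 in both replicates.

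Marker genes of cell types were summed on each array. The summed intensity of 7 smooth muscle marker genes was 10926 and 7324 in stomach replicates 1 and 2, 1306 and 812 in pancreas and 693 and 617 in liver, and all 7 were called higher in stomach than in pancreas. The 4 stomach epithelium markers summed to 12584 and 7181 in stomach and to between 48.0 and 490 elsewhere. Both sums were higher in stomach replicate 1 than in replicate 2, as was the median intensity of the 77 genes. Of these sums, acta2.L made up 6909 and 4649 for smooth muscle and atp4b.S 7141 and 2264 for stomach epithelium. The epithelium gene ctse.L was at 3564 and 3379 in stomach and ctse.S at 1179 and 655, while sox2.L was higher in replicate 2, at 700 and 882. In pancreas and liver the smooth muscle sum and the median of the 77 genes were also higher in replicate 1. The stomach epithelium sum in pancreas went the other way. The 95th percentile of intensity over the array was also higher in replicate 1 in every organ. It was 1537 and 1449 in pancreas, 1536 and 1433 in liver and 1431 and 1248 in stomach. The 8 measured striated muscle markers summed to 2780 and 2206 in stomach, 1706 and 1567 in liver and 880 and 990.5 in pancreas, of which ckm.L made up 2070 and 1454 in stomach, while actn3.L stayed under an intensity of 10 on all arrays. Without ckm.L the other 7 summed to 710.0 and 752 in stomach, 1028 and 833 in liver and 642 and 673 in pancreas, and their highest organ mean was in liver for 5, in pancreas for 2 and in stomach for 0. The 6 erythrocyte markers summed to 11726 and 10794 in liver, 2675 and 2406 in pancreas and 1853 and 1528 in stomach. Most of this was hba2.L, at 11343 and 10324 in liver, 2467 and 2213 in pancreas and 1719 and 1357 in stomach. Among the others hbg1.L stayed under an intensity of 10 on all arrays. In whole buds, fewer cells of a type and less RNA per cell cannot be told apart, and the part of these cell types in the differences was not tested.

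Complex I, which starts the chain, was the largest group. All but 1 of its 25 genes were below 0 in liver minus stomach (median -0.41), 22 in pancreas minus stomach (median -0.25), and 17 were above 0 in pancreas minus liver (median 0.16). The acyl carrier protein gene ndufab1.L, whose product also serves mitochondrial fatty acid synthesis, was the called member. Its intensity was 522 and 588 in liver, 729 and 745 in pancreas and 1094 and 984 in stomach. The 3 organs did not overlap, with liver lowest. Stomach was 1.87-fold above liver (log2 difference -0.91 for liver minus stomach, SE 0.191, limma adjusted p = 0.0497). With the replicate number as a block the adjusted p was 0.0593, leaving out any 1 array ended the call (0.109 to 0.206), and over all alternatives the adjusted p ran from 0.00922 to 0.206.

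The core subunit gene ndufs3.S, part of the arm that faces the matrix, was at 527 and 522 in pancreas, 544 and 722 in liver and 1160 and 985.5 in stomach. Both stomach arrays were above the other 4, and stomach was 2.04-fold above pancreas (limma adjusted p = 0.0627, from 0.0127 to 0.241 over the alternatives). The ndufs3.L copy differed less, with a pancreas minus stomach log2 difference of -0.28 against -1.03 for ndufs3.S. The accessory subunit gene ndufa8.L was at 1198 and 1197 in pancreas, 1312 and 1416 in liver and 2488 and 1805 in stomach, again with stomach apart, at 1.77-fold above pancreas (adjusted p = 0.101). The brightest member was level: ndufa9.L was at 4981 and 4324 in pancreas, 4331 and 3990 in liver and 4797 and 4279 in stomach. Its organs overlapped, with an F test adjusted p of 0.800, and of 0.195 after quantile normalization. For ndufb5.L, the next brightest, the values were 3183 and 3147 in pancreas, 2558 and 3364 in liver and 4218 and 3338 in stomach (F test adjusted p = 0.541). Both of its stomach arrays were above both pancreas arrays, while liver overlapped stomach. The assembly factor gene ndufaf7.S was dimmer, at 142 to 248, with an F test adjusted p of 0.355.

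Complex II, succinate dehydrogenase, also works in the citric acid cycle. Its 4 measured genes were each higher in stomach than in both other organs, by non-overlapping arrays, and none was called. Of all probe sets, 24.2% had both stomach arrays above both pancreas arrays and 25.6% had them above both liver arrays. The flavoprotein gene sdha.L was at 776 and 592.5 in pancreas, 654 and 538 in liver and 1151 and 980 in stomach, 1.79-fold above liver (limma adjusted p = 0.108). The other copy, sdha.S, was at 193 and 182 in pancreas, 236 and 201 in liver and 297 and 244 in stomach, and the iron-sulfur subunit gene sdhb.S at 948 and 958, 921 and 939.5, and 1349 and 1295. The membrane anchor gene sdhd.S had the widest range of the complex. It was at 353 and 337 in pancreas, 240 and 246 in liver and 603 and 392.5 in stomach, with stomach 2.01-fold above liver (adjusted p = 0.0877, from 0.0262 to 0.257 over the alternatives).

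In complex III, which passes electrons from ubiquinol to cytochrome c, 8 of 10 genes were below 0 in liver minus stomach (median -0.41) and 8 in pancreas minus stomach (median -0.29). The core protein gene uqcrc2.S was at 905 and 747 in pancreas, 937.5 and 988 in liver and 1713 and 1439 in stomach. Stomach stood apart and was 1.91-fold above pancreas (limma adjusted p = 0.0656, from 0.0124 to 0.247 over the alternatives). The uqcrc2.L copy differed less, with a pancreas minus stomach log2 difference of -0.23 against -0.93 for uqcrc2.S. The other core protein gene, uqcrc1.L, was at 4256 and 3982, 4603 and 4389, and 5554 and 5042 in pancreas, liver and stomach, a range of 1.29-fold. The small subunit gene uqcrq.S was at 6682 and 4709 in pancreas, 3865 and 4365 in liver and 6248 and 5064 in stomach, where pancreas and stomach overlapped. Of the assembly factor genes, uqcc1.S was at 418 and 374 in pancreas, 474 and 360 in liver and 632 and 643 in stomach, and uqcc3.L was level at 517 to 663 (F test adjusted p = 0.886).

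Cytochrome c was represented by cycs.S, at 979 and 1109 in pancreas, 734 and 993 in liver and 1850 and 1430 in stomach. Stomach was highest and did not overlap the other organs, whereas 1 liver array lay within the pancreas values. Stomach was 1.91-fold above liver (log2 difference -0.93 for liver minus stomach, SE 0.257, limma adjusted p = 0.0988, from 0.0253 to 0.333 over the alternatives).

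Complex IV held the remaining called genes. Of its 19 genes, 14 were above 0 in pancreas minus liver (median 0.13), 9 were below 0 in pancreas minus stomach (median 0.05) and 15 below 0 in liver minus stomach (median -0.28). After quantile normalization the pancreas minus stomach median of complex IV was -0.17. The subunit gene cox4i2.S, whose mammalian counterpart is the form of subunit 4 found in lung and induced by low oxygen, was at 123 and 137 in pancreas, 170 and 224 in liver and 328.5 and 332 in stomach. The organs did not overlap, and stomach was 2.54-fold above pancreas (log2 difference -1.34 for pancreas minus stomach, SE 0.222, 95% interval -1.91 to -0.78, limma adjusted p = 0.0330). Its difference was -1.41 in replicate 1 and -1.27 in replicate 2, and the call ended without either pancreas array or either stomach array (adjusted p from 0.117 to 0.161). It was also the gene called by the F test (limma adjusted p = 0.0416).

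The copper chaperone gene cox17.L, whose product hands copper on for insertion into the oxidase, ran the other way. It was at 1397 and 1457 in pancreas, 632 and 706 in liver and 1019 and 874 in stomach. Pancreas was highest and liver lowest without overlap. Pancreas was 2.14-fold above liver (log2 difference 1.09, SE 0.197, 95% interval 0.59 to 1.60, limma adjusted p = 0.0441) and 1.51-fold above stomach (adjusted p = 0.139). With the replicate number as a block the adjusted p against liver was 0.0541, and over all alternatives it ran from 0.00552 to 0.180; each array left out in turn ended the call. The assembly factor gene cox16.L was lowest in liver, at 207 and 242, against 433 and 369 in pancreas and 508.5 and 418 in stomach, which was 2.06-fold above liver (adjusted p = 0.0511, from 0.0121 to 0.210 over the alternatives).

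The brightest complex IV subunit genes were level or rested on 1 array. For cox5a.S the intensities were 6645 and 6084 in pancreas, 5742 and 5283 in liver and 6893 and 5509 in stomach. Its F test adjusted p was 0.724, and 0.162 after quantile normalization. For cox7c.L they were 5150 and 4558.5 in pancreas, 5349 and 4807 in liver and 5206 and 2430 in stomach, so that stomach replicate 2 alone was low.

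**Figure D3:**
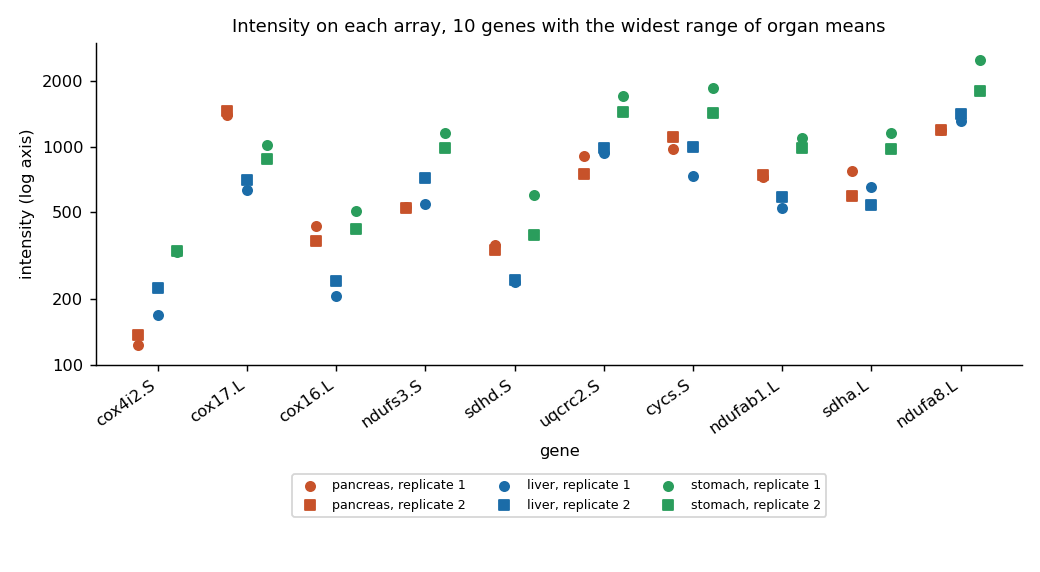
The intensity on each of the 6 arrays is plotted on a log axis for the 10 genes with the widest range of organ means, with colour for organ and circles or squares for replicates 1 and 2. Stomach is the highest organ in 9 of the 10, and pancreas in cox17.L.

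Complex V, the ATP synthase, held the 3 brightest probe sets, and on the deposited scale these were level across the organs. The genes of the F1 core subunits alpha and beta, atp5f1a.L and atp5f1b.S, and the rotor ring gene atp5mc3.S had ranges of organ means of 0.09, 0.03 and 0.05 on the log2 scale. Array by array, atp5f1a.L was at 10649 and 8333 in pancreas, 10374 and 8485 in liver and 10058 and 9881 in stomach. Likewise atp5mc3.S was at 10042 and 9335, 10395 and 9697, and 10475 and 9096. Replicate 1 was above replicate 2 in each organ for both genes, and the organs overlapped. The 95% interval of liver minus stomach was -0.67 to 0.49 for atp5f1a.L and -0.45 to 0.53 for atp5mc3.S, which is the error on a level reading. Over the complex, 17 of 18 genes were below 0 in liver minus stomach (median -0.35) and 17 in pancreas minus stomach (median -0.23). After quantile normalization all 18 were below 0 in both comparisons, with medians of -0.64 and -0.50. The limma F test adjusted p was then 0.209 for atp5f1a.L and 0.307 for atp5mc3.S. The gene atp5if1.L, which encodes the inhibitor of ATP hydrolysis by this enzyme, was at 1675 and 1666 in pancreas, 1621 and 1885 in liver and 2485.5 and 2176 in stomach, 1.39-fold above pancreas (limma adjusted p = 0.214).

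Brighter probe sets had narrower ranges. Across the 77 genes the range of organ means fell with mean intensity (Spearman rho -0.57 and Pearson r -0.53 on the log2 intensity, a description over genes that share arrays). The 9 genes with a mean above 4000 had a median range of 0.21, against 0.44 for the rest. The part of brightness itself in these ranges was not tested.

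**Figure D4:**
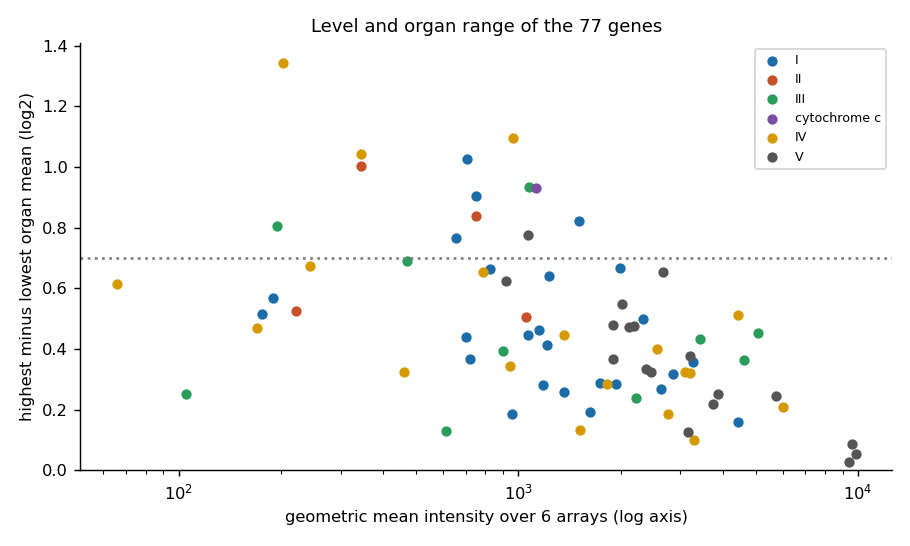
The highest minus the lowest organ mean (log2) is plotted against geometric mean intensity (log axis) for the 77 genes, coloured by complex, with a dotted line at the median range of all gene probe sets, 0.70. The 3 brightest points, all of complex V, lie below 0.1.

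The .L and .S copies of a gene could be compared for 15 of the names, through the log2 ratio of the copies on each array, tested over all 1017 genes with both copies. The limma F test called none of the 15 (against 6.1% of the 1017), nor did any single pair of organs (against 1.67% for pancreas and liver, 3.05% for pancreas and stomach and 5.01% for liver and stomach), with a lowest adjusted p of 0.0711 for the F test and 0.0708 for a pair of organs. By the F test 3 had an unadjusted p under 0.05: cox17, cox4i2 and uqcc2. These were named after their values were seen. For cox17 the pancreas minus liver difference was 1.09 for the .L copy and 0.10 for the .S copy, a gap of 0.99 (95% interval 0.42 to 1.56, adjusted p = 0.0920). The .S copy was at 634 and 791 in pancreas, 586 and 742 in liver and 1104.5 and 974 in stomach. For cox4i2 the pancreas minus stomach difference was -0.03 for .L and -1.34 for .S (gap 1.32, 95% interval 0.46 to 2.18, adjusted p = 0.124). The .L copy was dim, at 63.4 and 51.0 in pancreas, 97.3 and 78.0 in liver and 60.8 and 55.4 in stomach, and was highest in liver. For the assembly factor uqcc2 the liver minus stomach difference was 0.25 for .L and -0.75 for .S (gap 1.00, adjusted p = 0.129). The copies can be similar in sequence, so probes may read both, which these files cannot resolve.

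**Figure D5:**
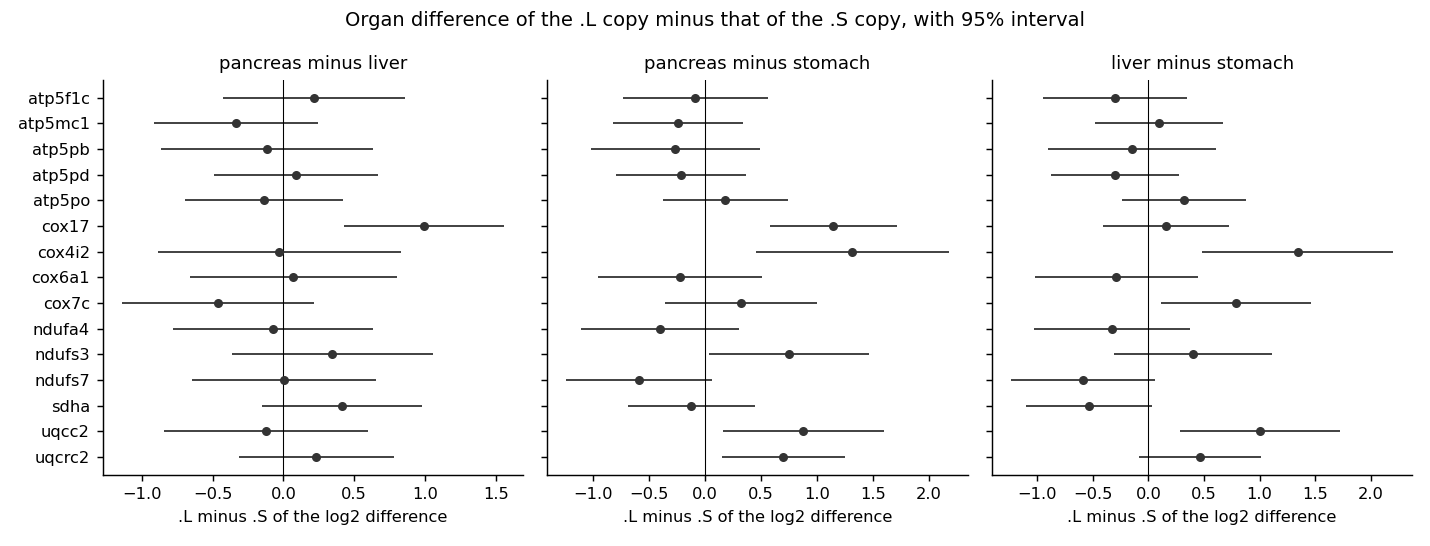
For the 15 genes with both copies, the organ difference (log2) of the .L copy minus that of the .S copy is plotted with its 95% interval, in 1 panel per pair of organs. Intervals for cox17 lie above 0 in both panels that start from pancreas, and those for cox4i2 and uqcc2 in both panels that subtract stomach. Those for ndufs3 and uqcrc2 lie above 0 in pancreas minus stomach, and that for cox7c in liver minus stomach.

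For 4 genes another probe set gave a check. The other probe sets of cyc1.L, cox4i1.S, ndufb10.S and ndufb9.L were not called in any pair either. The pancreas minus liver difference changed sign between the probe sets of cox4i1.S (-0.09 and 0.31), ndufb10.S (-0.17 and 0.38) and ndufb9.L (0.26 and -0.20), the kept probe set first. Pancreas minus stomach changed sign for ndufb10.S (-0.66 and 0.09) and ndufb9.L (0.13 and -0.14), and liver minus stomach for ndufb9.L (-0.12 and 0.06) and cox4i1.S (0.19 and -0.07).

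Neighbouring mitochondrial genes were read from lists of pathway members. Of 20 genes of pyruvate dehydrogenase and the citric acid cycle, 1 was called higher in pancreas than in liver (against 2.7% of all probe sets). In stomach 2 were called higher than in liver (against 4.64%), and none was called between pancreas and stomach (against 7.98%). The medians were 0.15, -0.57 and -0.21 for pancreas minus liver, liver minus stomach and pancreas minus stomach. The NADP-dependent isocitrate dehydrogenase gene idh2.S differed most, at 5917 and 4200 in pancreas, 682 and 656 in liver and 5814 and 4280 in stomach. Against liver it was 7.45-fold higher in pancreas (limma adjusted p = 0.0104) and 7.46-fold higher in stomach (adjusted p = 0.00786). The NAD-dependent enzyme's idh3a.S was 2.01-fold above liver in stomach (adjusted p = 0.0449).

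Of 14 measured assembly genes outside the naming rule, 1 was called higher in pancreas than in liver (against 2.7% of all probe sets). In stomach 1 was called higher than in liver (against 4.64%). The medians of the 14 were 0.31 for pancreas minus liver, -0.24 for pancreas minus stomach and -0.58 for liver minus stomach. The called genes were bcs1l.L and hccs.L. The product of bcs1l.L inserts the Rieske protein into complex III, and the gene was 2.11-fold above liver in pancreas (limma adjusted p = 0.0497). The cytochrome c heme lyase gene hccs.L was 1.95-fold above liver in stomach (limma adjusted p = 0.0449). These calls and those of the citric acid cycle genes are given without the alternative settings. None of 14 coenzyme Q and electron donor genes, 6 ATP export genes, 14 regulators of mitochondrial biogenesis or 8 mitochondrial antioxidant genes was called in any pair by limma. Of all probe sets 6.26% were called for pancreas against liver, 7.98% for pancreas against stomach and 9.59% for liver against stomach. At an unadjusted p under 0.05 by limma, the regulators had 5 genes in pancreas against liver, 1 in pancreas against stomach and 2 in liver against stomach. In the same order, coenzyme Q and donors had 2, 1 and 3, ATP export 0, 0 and 2, and the antioxidant genes 0, 2 and 2. Of all probe sets 24.1%, 25.8% and 24.1% passed the same threshold in these pairs. The pancreas minus liver median of the regulators was 0.36, and the liver minus stomach medians were -0.30 for coenzyme Q and donors, -0.33 for ATP export, -0.14 for the regulators and -0.01 for the antioxidant genes.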

How the data were processed

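The authors deposited 1 table of linear intensity values for 6 Affymetrix arrays. Per the submitters' processing notes RMA was used, and the design text names the Expressionist software; their order and versions are not stated in these sources. All arrays had a median of 100 over the deposited intensities, so differences are relative to the array median. Of 15611 probe sets, 120 controls were left out. Platform annotation gave 9304 of the remaining 15491 probe sets 1 symbol, 195 several and 5992 none, and all 77 genes matched RefSeq by gene ID. Values were log2-transformed and fitted with limma 3.58.1 in R 4.3.3 on organ means of all 6 arrays, with 3 residual and 2.14 prior degrees of freedom, an F test among organs and 3 contrasts. P-values were two-sided and Benjamini-Hochberg adjusted over 15491 probe sets. The fit was tested on simulated data.

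Genes were named by rule: those called, the 10 with the widest range, the 2 brightest subunit genes and up to 2 brightest assembly genes of each complex, all complex II and cytochrome c genes, variant subunit forms and the inhibitor. Other members named, atp5f1b.S among them, were chosen after their values were seen. The members and lists were chosen with earlier results of these data known. Replicate numbers were taken to pair the samples, since the titles give same-numbered arrays of the 3 organs the same leading code. What the code stands for is not stated there. Deviations from organ means correlated at 0.173 for pancreas with liver, 0.197 for pancreas with stomach and 0.152 for liver with stomach. Alternatives were the replicate block, quantile normalization, a common median of probe sets above 100, adding 16 before the log, leaving out the dimmest 40% of probe sets, an intensity trend with a robust prior, averaged probe sets, plain ANOVA and each array left out. The test of .L against .S copies was added after seeing the data.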

Additional observations from a re-analysis of the deposited data

How the results depend on the processing

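The direction of the median difference between organs held under all alternatives run, while the number of genes called did not. Where 1 gene was called by the limma F test, 2 were called after quantile normalization, 7 after adding 16, 11 with dim probe sets left out, 14 with the intensity trend, 2 with averaged probe sets and 0 by plain ANOVA after Benjamini-Hochberg adjustment (16 unadjusted). Genes called higher in pancreas than in liver numbered 2 with dim probe sets left out and 2 with the trend. Genes called higher in stomach than in pancreas numbered 4 after quantile normalization, 4 after adding 16, 5 with dim probe sets left out and 5 with the trend. Genes called higher in stomach than in liver numbered 4, 5, 12 and 11 under the same settings, 2 with a common median and 2 with averaged probe sets. The share of all probe sets called was not counted for the common median, averaged probe sets or plain ANOVA. With each array left out in turn, the medians ran from 0.05 to 0.18 for pancreas minus liver, -0.379 to -0.072 for pancreas minus stomach and -0.54 to -0.22 for liver minus stomach. Quantile normalization moved the medians against stomach to -0.46 for pancreas and -0.59 for liver. With a common median of bright probe sets the pancreas minus liver median was 0.044. The pancreas minus stomach median was then -0.313 and the liver minus stomach median -0.391. With the replicate number as a block, 1 gene was called by the F test, 0 higher in pancreas than in liver, 1 higher in stomach than in pancreas and 0 higher in stomach than in liver, and the block changed no other call. The copies of none of the 15 genes were called by limma with the block or with any 1 array left out (lowest adjusted p from 0.0694 to 0.217). Leaving out an array leaves an organ with 1 array, assumed to vary like the others. The cause of the other changes was not tested. Few arrays limit all of these values.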
